A study of Rattus norvegicus with 2 samples.

Results

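The miR-34 family was read in the nucleus accumbens (NAc) of rats through 4 array probes, rno-miR-34a, rno-miR-34b, rno-miR-34c and rno-miR-449a, which were chosen by name out of 349 rat miRNA probes. The rule uses names and no measured value, but it was set with earlier results of these arrays known. The rats were male Sprague-Dawley animals weighing 150 to 180 g at the start. Vehicle rats were given 500 μl saline ip bid, and alcohol rats were given alcohol at 1 g/kg ip bid. Both groups were injected for 7 days before their NAc, core and shell together, was dissected. The study used 18 rats in 2 groups, and 1 array of 1 colour was analysed for each group, so alcohol and vehicle are compared without replicates and no p-value is given. The sources used here do not state whether RNA of several rats was pooled for an array.

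miRNAs are short RNAs that lower the output of mRNAs matching their seed, the stretch from base 2 to base 8. The miR-34 family is best known as a group of p53 target genes whose members repress regulators of the cell cycle and of cell survival. miR-34a has a gene of its own and is the member usually found in brain tissue. miR-34b and miR-34c are cut from 1 shared transcript and, like miR-449a, are typical of cells with motile cilia, such as those of the airway and the choroid plexus. miR-34c has also been linked to stress responses in the brain. The listed target of each probe is printed here, since the shared seed is what makes these probes a family. It was read from the array files, with bases 2 to 8 in capitals. The fifth line is the RefSeq form of miR-34b, and the last is the other arm of the miR-34c hairpin.
miR-34a: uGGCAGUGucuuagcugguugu
miR-34b: uAGGCAGUguaauuagcugauug
miR-34c: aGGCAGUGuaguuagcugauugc
miR-449a: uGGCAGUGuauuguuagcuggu
miR-34b in RefSeq: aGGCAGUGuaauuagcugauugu
miR-34c*: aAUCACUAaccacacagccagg

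The seed GGCAGUG stood at bases 2 to 8 of miR-34a, miR-34c and miR-449a. In the miR-34b target listed for the array the same letters began at base 3, because that target starts 1 base further upstream in the hairpin than the RefSeq mature sequence. Counted from its own first base, the listed miR-34b therefore carried the seed AGGCAGU, whereas the RefSeq form carried GGCAGUG. The other 3 members matched their RefSeq sequence (build GRCr8) exactly. On the listed strand, GGCAGUG occurred anywhere in 4 of the 349 targets, or 1.15%, and these 4 were the members. Among 724 mature rat miRNAs in RefSeq, 5 had this seed. The fifth was miR-449c-5p, which was not analysed here. When aligned without gaps, with offsets of up to 2 bases, 2 pairs of members had the most identical bases. The targets of miR-34b and miR-34c were identical at 21 of 22 aligned bases, and those of miR-34a and miR-449a at 15 of 22, without gaps. Each remaining pair shared 11 or 12 bases by the same count. The alignment of miR-34c with miR-449a, at 12 of 20 bases, was offset by 2 bases, so their seeds did not line up in it. Alignments with gaps, which can give other counts and other pairs, were not made. Binding of miR-34b to the probe for miR-34c, or the reverse, was not tested.

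The target of miR-34a matched chr5:165815971-165815992 on the plus strand of GRCr8, within the span of the long non-coding RNA gene LOC103692514. The targets of miR-34b, at chr8:60306658-60306680, and of miR-34c, at chr8:60306133-60306155, lay on the minus strand. Their hairpins were 441 bases apart, and both overlapped the protein-coding gene Hoatz. miR-449a matched chr2:46403925-46403946 on the plus strand, within the span of the long non-coding RNA gene LOC134485839, and its hairpin was 1436 bases from that of miR-449c. The tables used here give gene spans only, so exon and intron could not be told apart.

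Each member had 9 repeat spots, which on an array all read the same labelled RNA, so every SD given here is technical. The unit is the pixel density averaged over a spot, in arbitrary units, with no background taken off. The floor differed between the arrays. The median density of 88 mismatched control spots was 241.0 with vehicle and 144.8 with alcohol, and that of 519 empty spots was 202.0 and 141.4. A probe counted as detected if 5 or more of the 9 spots lay above a threshold set from the mismatched controls, 277.7 with vehicle and 178.9 with alcohol. The rule passed 151 miRNAs with vehicle, 196 with alcohol and 150 on both arrays.

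miR-34a was the only one of the 4 members above the threshold on both arrays. Its density was 373.9 ± 14.9 (SD over 9 spots) on the vehicle array, with a lowest spot of 345.9, a median of 376.7 and a highest of 399.4. On the alcohol array it was 357.6 ± 27.7 (SD over 9 spots), with a lowest spot of 315.7, a median of 362.6 and a highest of 387.4. The spots of the 2 arrays overlapped, and 2 of the 9 positions were brighter on the alcohol array. All 9 spots passed the threshold on each array. In whole tissue, fewer cells that express a miRNA and less of it per cell cannot be told apart.

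miR-34c, from the shared miR-34b and miR-34c transcript, passed on the alcohol array only. Its density there was 187.6 ± 14.5 (SD over 9 spots), with a lowest spot of 164.9 and a highest of 213.5, and 7 of 9 spots passed. On the vehicle array it was 255.7 ± 7.84 (SD over 9 spots), between 245.9 and 268.7, and 0 of 9 spots passed. The vehicle reading was the higher number but lay only 14.6 above the mismatched controls of its own array, against 42.8 on the alcohol array.

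miR-34b and miR-449a were not detected on either array, with 0 of 9 spots above the threshold each time. miR-34b read 248.4 ± 5.57 with vehicle and 147.1 ± 8.65 with alcohol (SD over 9 spots), which is 7.43 and 2.26 above the mismatched controls. miR-449a read 248.4 ± 8.13 and 143.3 ± 6.43 (SD over 9 spots), a difference from the mismatched controls of 7.35 and -1.51. Both were among the 152 miRNA probes detected on neither array, whose densities ran from 232.6 to 278.8 on the vehicle array and from 137.5 to 183.05 on the alcohol array. A reading in that range is only an upper bound, so a level of miR-34b or miR-449a below the threshold was not measurable here.

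**Figure D1:**
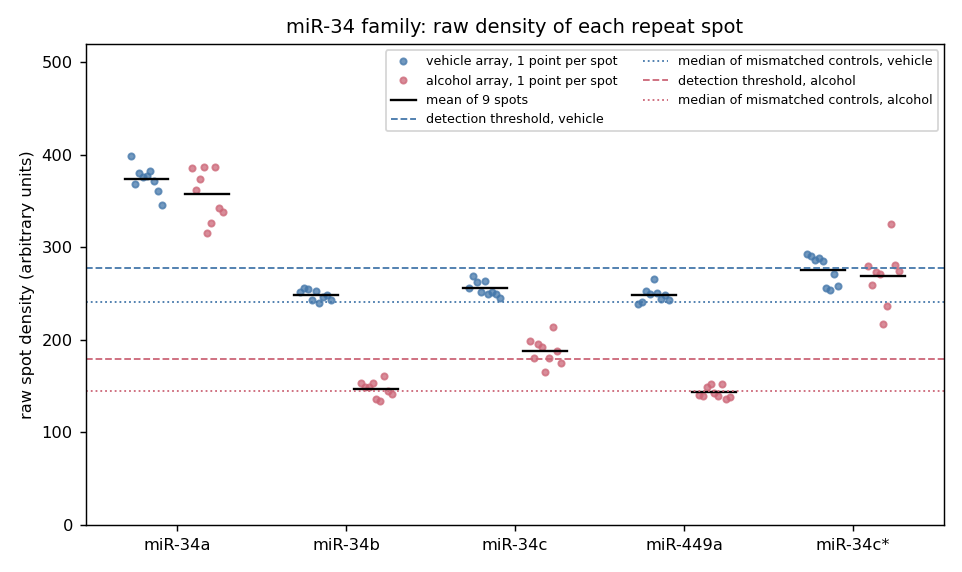
Raw density of the 9 repeat spots (points) and their mean (bars) for the 4 members and miR-34c* on the vehicle and alcohol arrays, in arbitrary units, with the detection threshold (dashed) and the median of the mismatched controls (dotted) of each array. miR-34a lies above both thresholds, while miR-34b and miR-449a lie next to the mismatched controls of each array.

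Detection with vehicle depended on the reference chosen for background. When the threshold was the mean of the empty spots plus 3 SD instead, all 4 members passed on all 9 spots of the vehicle array, as did 348 of the 349 miRNA probes. On the alcohol array the same rule left miR-34a alone among the members, with 3 of 9 spots passing for miR-34c. Mismatched controls were brighter than empty spots on both arrays, and by more on the vehicle array.

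To compare alcohol with vehicle, the densities were background-corrected with the normexp method, log2-transformed, averaged over spots and normalized between the arrays with cyclic loess, a smooth curve that removes differences depending on brightness. The signal of miR-34a was then 339 with vehicle and 211.0 with alcohol. This is 62.2% of vehicle, or -0.68 ± 0.14 (SD over 9 spots) as a log2 ratio to vehicle, and 1.61-fold lower. All 9 positions had a ratio below 0, from -0.93 to -0.53. Before normalization the ratio was 0.22, with 1 of 9 positions below 0, and the loess curve moved it by -0.90. The 2 values differ in direction, and the difference comes from the normalization alone. The ratio of raw densities, 95.7% of vehicle, lay between them.

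**Figure D2:**
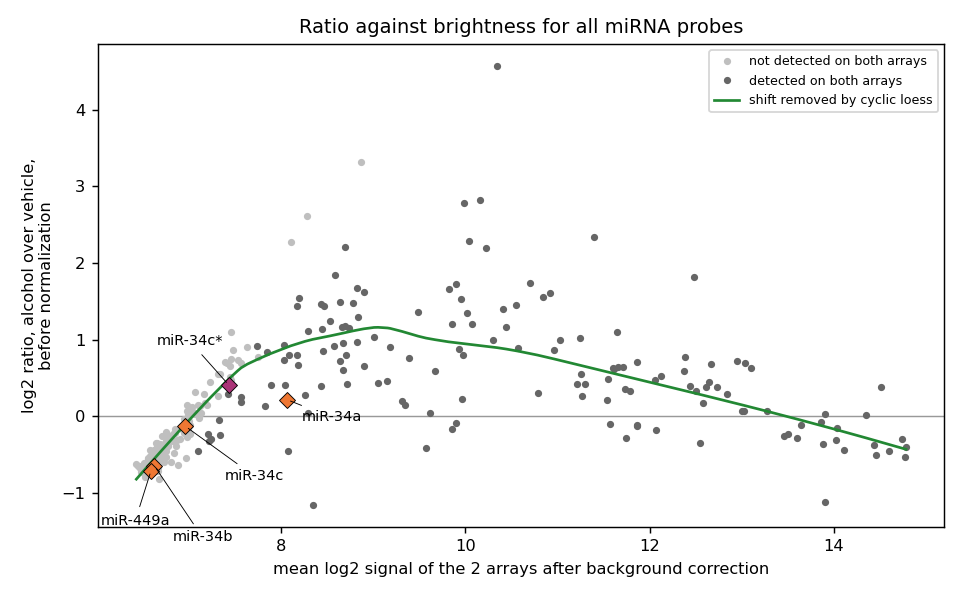
Log2 ratio of alcohol to vehicle before normalization against the mean log2 signal of both arrays for the 349 miRNA probes (points, darker where detected on both arrays), with the shift that cyclic loess removed (line). miR-34a sits at 0.22, above 0 but below the line, whereas miR-34b, miR-34c and miR-449a sit on the line among probes near background.

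Against miRNAs of like brightness miR-34a was low, but within their spread. Among the 30 detected miRNAs nearest to it in signal the median log2 ratio before normalization was 0.82, with an SD of 0.64, and 5 of the 30 were below miR-34a. After cyclic loess their median was -0.15, with an SD of 0.60, and 4 were below miR-34a. The distance of miR-34a from that median was -0.61 before and -0.54 after normalization, each under 1 SD of the neighbours. Over the 150 miRNAs detected on both arrays the median after cyclic loess was -0.07, and 15 of them were lower than miR-34a.

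A miRNA was called changed when it was detected on at least 1 array, reached a normalized signal of 400 on its brighter array and was at least 1.3-fold apart. None of the 4 members was called, as none reached that signal. Of the 125 miRNAs that met the signal limit, 20.8% were lower on the alcohol array and 26.4% were higher. Without the signal limit miR-34a passed 1.3-fold in the lower direction, as did 25.3% of the 150 miRNAs detected on both arrays. Without normalization miR-34a, at 0.22, passed in neither direction, whereas 62% of the 150 were higher and 6.67% were lower. With the arrays scaled to the 6 probes for 5S rRNA, miR-34a passed in the higher direction with a log2 ratio of 0.52, as did 73.3% of the 150. These shares show how common each call was among all detected miRNAs.

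Across the 17 alternative settings, the log2 ratio of miR-34a ran from -1.04 in the processed signal that the authors deposited to 0.52 under the 5S rRNA scaling. It was below 0 in 14 and above 0 in 3, and the 3 were no normalization, the 5S rRNA scaling, and subtraction of the mismatched control baseline with no normalization. In each of the 17, miR-34a lay below the median of those 150 miRNAs, by a distance of -0.15 to -0.95. Scaling to the median, to the 75th percentile or to 5S rRNA moves all probes alike, so these 3 settings give the same distance as no normalization, -0.35, and could not have changed it. The direction of the ratio was not fixed by these arrays.

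**Figure D3:**
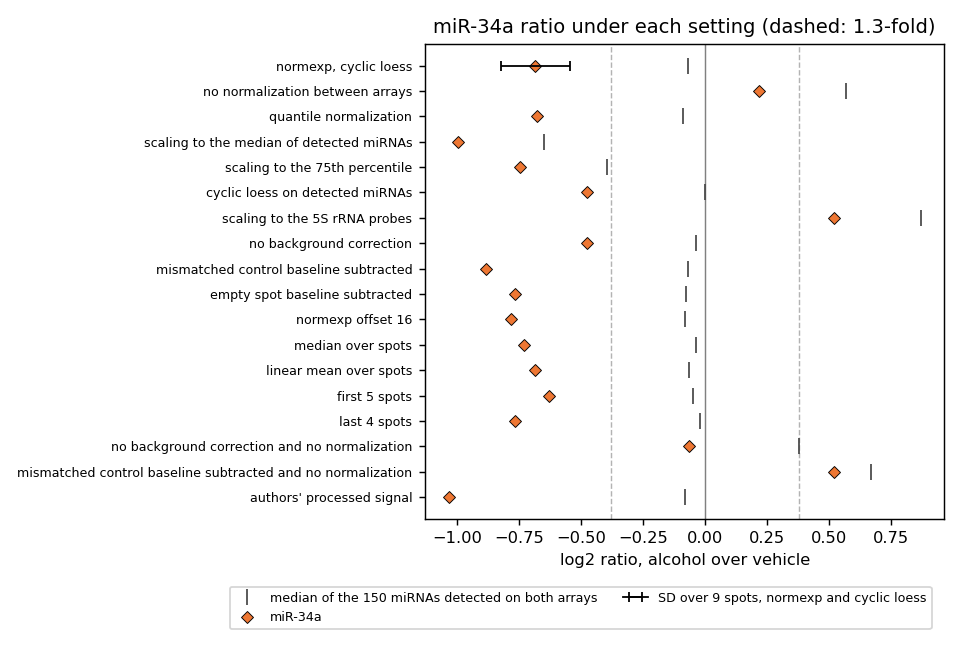
Log2 ratio of alcohol over vehicle of miR-34a (diamonds) and the median over 150 miRNAs (ticks, those detected on both arrays) with normexp and cyclic loess and in 17 alternatives, with the SD over 9 spots in the former and dashed lines at 1.3-fold. The ratio of miR-34a spans -1.04 to 0.52 and lies to the left of the median, at a distance that the 3 scalings share with no normalization by construction.

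In the authors' processed signal, miR-34a stood at 270.8 with vehicle and 132.1 with alcohol. miR-34c stood at 35.5 and 39.4, miR-34b at 15.6 and 10.6, and miR-449a at 16.1 and 5.33. The values of miR-34b and miR-449a are those of probes not above background on either array, so no fold is given for them. For miR-34c, detected on the alcohol array only, a lower bound was taken against the dimmest signal detected on the vehicle array. That signal was 136.7 after cyclic loess, above the 123.3 of miR-34c on the alcohol array, so no fold is given for it either.

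The brightness of miR-34a ranked 120 of 349 with vehicle and 139 of 349 with alcohol, and miR-34c ranked 192 on the alcohol array. A rank of brightness also depends on the probe and does not give numbers of molecules.

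The arrays also held a probe for miR-34c*, the arm opposite miR-34c in the same hairpin, which does not share the seed and is not counted as a member. It was detected on both arrays, on 5 of 9 spots of the vehicle array and 9 of 9 of the alcohol array. Its density was 276.0 ± 16.2 and 268.8 ± 30.2 (SD over 9 spots). The log2 ratio after cyclic loess was -0.08 ± 0.30 (SD over 9 spots), smaller than its own spread between spots, and 0.41 before normalization. Over the 17 alternatives it was below 0 in 12 and above 0 in 5, from -0.81 to 1.04. The star arm thus passed the threshold on the vehicle array where the guide arm did not. Different probes bind with different strength, so the 2 arms are not compared in level.

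The spots of miR-34a, miR-34b, miR-34c and miR-34c* were printed in adjoining rows, in 3 row blocks of 3 spots each. On the alcohol array the leftmost spot was the brightest of its row in all 3 blocks for each of these 4 probes, and in 2 of 3 for miR-449a. For miR-34a the left, middle and right spots averaged 386.6, 340.3 and 346.0. On the vehicle array they averaged 382.7, 369.0 and 369.8. Over all 349 miRNA probes the left spot was the brightest in all 3 blocks for 34.4% on the alcohol array and 6.02% on the vehicle array. The normalized log2 ratio of miR-34a was -0.59 over the left spots, -0.75 over the middle ones and -0.72 over the right ones, below 0 in each.

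By a rule set on the pair of normalized signals, the probes closest to miR-34a among the other 149 miRNAs detected on both arrays were miR-146a, miR-324-3p and miR-31. Their distances in log2 units over the 2 arrays were 0.15, 0.28 and 0.32. miR-146a, known for dampening innate immune signalling, had -0.48 ± 0.22 as log2 ratio after cyclic loess (SD over 9 spots). miR-324-3p had -0.70 ± 0.23 and miR-31 had -0.41 ± 0.16 by the same measure. Before normalization they were at 0.42, 0.28 and 0.41, all below the median of 0.57 over the 150, as was miR-34a. With 2 arrays this says only that the signals were alike.

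Other miRNAs that textbooks link to p53 were read from a list of 9, all on the arrays. Of these, 5 were detected on both arrays, and their median log2 ratio after cyclic loess was 0.23, against -0.07 for the 150 miRNAs detected on both. Of the 5, 2 were at least 1.3-fold higher and 0 lower, beside 21.3% higher and 25.3% lower among the 150. The 2 were miR-145, which restrains proliferation and marks smooth muscle, at 0.60 ± 0.28, and miR-107, also induced by p53, at 0.44 ± 0.15 (SD over 9 spots each). miR-143, made from the same transcript as miR-145, was at 0.23 ± 0.14, miR-16, a repressor of cell cycle genes, at 0.12 ± 0.10 and miR-192 at 0.18 ± 0.19. miR-194 was detected on the alcohol array only, and miR-215, miR-200c and miR-141 on neither. Both miR-143 and miR-145 are also markers of vessel walls. Before normalization the median of the 5 was 0.92, against 0.57 for the 150, most of which were then above 0.

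**Figure D4:**
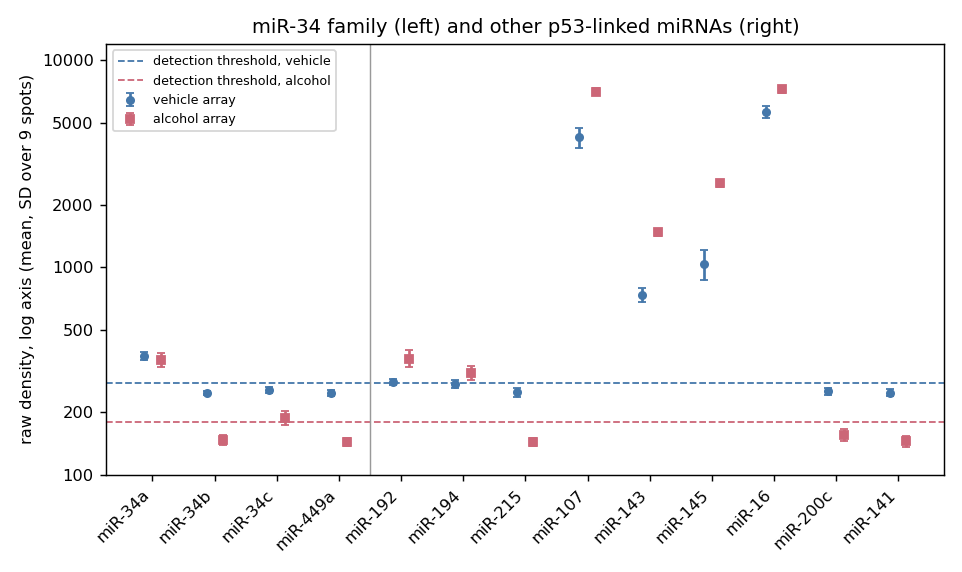
Raw density on a log axis (mean and SD over 9 spots, arbitrary units) of the 4 members and of 9 other p53-linked miRNAs on the vehicle (circles) and alcohol (squares) arrays, with the detection threshold of each array dashed. Each probe is to be read against the thresholds and not against other probes, and miR-145 and miR-107 are the listed miRNAs that passed 1.3-fold after normalization.

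The labelled tissue carried the miRNAs of neurons. miR-124 and miR-128 were detected on all 9 spots of both arrays, with log2 ratios of 0.03 ± 0.06 and 0.02 ± 0.07 (SD over 9 spots). miR-9 was detected on all spots too, at 0.72 ± 2.57, a ratio smaller than its spread over spots. The 5 miRNAs listed for ciliated and other epithelium (miR-200a, miR-200b, miR-200c, miR-141 and miR-429) were detected on neither array. Their raw densities ran from 248.8 to 253.2 with vehicle and from 144.5 to 156.0 with alcohol, close to the mismatched controls of each array. This list is not particular to cells with motile cilia. It therefore cannot show whether the cells typical of miR-34b, miR-34c and miR-449a were present.

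Of the 2 markers of choroid plexus epithelium, miR-211 was detected on neither array. miR-204 read 276.4 ± 32.1 with vehicle, where 3 of 9 spots passed, and 1568 ± 263 with alcohol, where 9 of 9 passed (SD over 9 spots). The summed raw density of the pair was 524 with vehicle and 1713 with alcohol. Such a sum includes the floor of each probe, which differed between the arrays. miR-34c passed the threshold on the same array on which miR-204 was bright, but that array passed 196 miRNAs, against 151 with vehicle. After cyclic loess the signal of miR-34c was 125.6 with vehicle, where it was not detected, and 123.3 with alcohol. Whether choroid plexus in the dissected tissue had a part in the detection of miR-34c was not tested. The 2 miRNAs listed for oligodendrocytes, miR-219-5p and miR-338, were also detected on the alcohol array only. Their summed raw density, floor included, was 513 with vehicle and 1069 with alcohol. The larger sum came from miR-338, which read 251.6 with vehicle and 846.9 with alcohol. miR-219-5p read 261.7 and 222.4, and 144.1 and 144.5 after cyclic loess, so the pair did not move together. Other arms under these names, miR-219-2-3p and miR-338*, were detected on all 9 spots of both arrays. Their log2 ratios were -0.25 and -0.72 after cyclic loess, and 0.43 and 0.44 before normalization. miR-219-1-3p was detected on neither array. The listed pair thus does not show that oligodendrocyte miRNAs were absent with vehicle. The 2 red blood cell miRNAs, miR-451 and miR-144, were detected on neither array. The 3 vessel wall miRNAs, miR-126, miR-143 and miR-145, were detected on both, with a median log2 ratio of 0.23 after cyclic loess, against -0.07 for the 150. The part of these cell types in the ratio of miR-34a was not tested.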

How the data were processed

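Small RNA from the NAc was tailed, tagged and stained with Cy3 by a service provider, and hybridized to miRNA arrays of 1 colour. The authors deposited a mean intensity for every spot, with background left in, and 1 processed intensity per probe, for which they subtracted background and normalized with a cyclic method whose settings are not given in the sources used here. Here, spot intensities were corrected with normexp (offset 50, fitted on all spots) in limma 3.58.1 under R 4.3.3, log2-transformed and averaged over 9 spots. The 2 arrays were then normalized with cyclic loess (span 0.7, 3 iterations) over 349 miRNA probes. A probe was detected when at least 5 of 9 spots exceeded the median of the mismatched controls by 3 median absolute deviations, scaled to a normal SD. With 1 array per group no test was run, and 2 arrays limit the precision. Background correction, averaging and normalization were tested on simulated arrays. Only probes brighter than any member were raised or lowered there. The test therefore covers neither the dim range of the members nor the detection rule. All else used Python 3.11.15 with pandas 2.3.3.

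The members, the lists, the detection rule and the call rule were chosen with earlier results of these data known. The miRNAs named are the 4 members, their star strand, the 3 probes nearest to each member detected on both arrays, and the p53 and cell type lists. Sequences came from the array files and from RefSeq (GRCr8), which held all 4 members, miR-34b shifted by 1 base. No genome build is named in the files. A ratio was formed only where a probe was detected on both arrays. The ratio of miR-34a was recomputed in 15 other settings, and 2 were added after the values had been seen.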

Additional observations from a re-analysis of the deposited data

How the results depend on the processing

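No paired analysis was possible because there was only 1 array for vehicle and 1 for alcohol. For the same reason treatment and array cannot be told apart in any setting. No ratio was given as a value for miR-34b, miR-34c and miR-449a, which were not above background on at least 1 array. Their ratios were therefore not followed over the settings. Of 15 other settings for the log2 ratio of miR-34a, -0.68, 13 kept it below 0 and past 1.3-fold. It was 0.22 without normalization, 0.52 with scaling to 5S rRNA, -0.997 with scaling to the median of detected miRNAs, -0.48 when loess was fitted on detected miRNAs, -0.48 when background was left in, -0.88 with the mismatched control baseline and -1.04 in the authors' processed signal. The remaining 8 moved it by less than its SD over spots. Of the 2 settings added after the values had been seen, raw densities gave -0.067 and the mismatched control baseline without normalization gave 0.52. The number of members called, 0, became 1 when background was left in and 1 with no signal minimum, in both cases miR-34a. The number of members detected, 1 with vehicle and 2 with alcohol, was 4 and 1 by the rule from empty spots, and 1 and 2 with deviations not scaled to a normal SD. The rank of miR-34a moved from 120 to 119 and from 139 to 141 in the authors' processed signal, and that of miR-34c on the alcohol array from 192 to 188. The cause of these shifts was not tested.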
